A study of Sus scrofa with 12 samples.

Results

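The 8 genes GGTA1, CMAH, B4GALNT2, CD46, CD55, CD59, CD47 and C3 were described because of their roles in the rejection of pig cells and organs by a human host. They were chosen by name and looked up by pig gene symbol among the 19681 Ensembl pig genes measured, of which 13998 had a symbol in the table of gene names used here and 5683 had none. CMAH, CD47 and C3 were found, so 3 of the 8 genes have values. No identifier carried the symbol GGTA1, B4GALNT2, CD46, CD55 or CD59, and the levels of these 5 genes are not analysed here. A RefSeq gene table of the pig listed 7 of the 8 genes by symbol and GGTA1 only as another name of GGTA1P, but it paired 0 of its 30371 genes with an Ensembl identifier, so it added no value.

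The values come from RNA sequencing of porcine induced pluripotent stem (iPS) cells on their way to endothelium and of AOC, a porcine endothelial cell line about which the sources used here say no more. In the induction, the cells received the GSK3 inhibitor CHIR99021 up to day 2 (IEC2), then BMP4, FGF2 and VEGF up to day 4 (IEC4), and then the endothelial medium EGM-2 with VEGF up to day 12 (IEC12). IEC12 was sequenced without sorting for CD31. Each of the 4 groups had 3 biological replicates, A, B and C, and the iPS and sorted libraries are not analysed here.

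Pig cells carry sugars that humans lack and against which human serum holds antibodies. GGTA1 is the transferase that makes the alpha-Gal epitope, CMAH is the hydroxylase that turns the common sialic acid into its N-glycolyl form, and B4GALNT2 is the transferase behind an Sda-like glycan. Once antibody binds, complement is activated through C3, its central component, while CD46, CD55 and CD59 are membrane proteins that restrain complement on the cell's own surface, and CD47 is the surface protein that signals to macrophages, through their receptor SIRPA, not to engulf the cell. Endothelium lines the vessels of a graft and is the first surface that host blood meets.

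Levels are given in FPKM, fragment counts divided by transcript length and by library size, so that levels of different genes can be set side by side. FPKM summed to 335976 to 457194 in a library, 8357 to 10467 genes reached an FPKM of 1, and libraries of a group correlated at r = 0.968 to 0.993 across genes. The number of reads behind a library is unknown. The cell labels were checked against marker genes. The summed FPKM of the 8 endothelial markers found (of 11) lay between 263 and 383 in AOC. It lay between 3.27 and 5.70 in IEC2, between 1.70 and 2.04 in IEC4 and between 0.415 and 0.531 in IEC12. KDR went the other way between IEC2 and AOC, with means of 2.95 and 1.36. Its means in IEC4 and IEC12 were 0.152 and 0.0125, and TIE1 had a mean of only 0.568 in AOC. CDH5, the cadherin of endothelial junctions, was listed at 0 in all 9 induced libraries. In the unsorted IEC12 mix, marker RNA thus did not bear out an endothelial identity of the mix as a whole. PECAM1 (CD31) had a mean of 114 in AOC and 0.0620 in IEC12. By flow cytometry the paper found the protein of this gene on a minority of the cells at the end of induction. The cells sorted for it also stained for other endothelial proteins. Why PECAM1 RNA was so low beside this protein finding was not tested. In bulk RNA, fewer cells of a type and less RNA per cell cannot be told apart.

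Differences between groups were tested with limma on log2(FPKM + 1) across all genes that reached an FPKM of 1 in 3 or more of the libraries fitted, and a gene was called at a Benjamini-Hochberg adjusted p under 0.05. In these data calls are common. They took 37.3% of 10542 genes tested in IEC4 against IEC2, 44.2% in IEC12 against IEC4 and 43.6% in IEC12 against IEC2, and 63.8%, 69.1% and 58.5% of 11053 genes in AOC against IEC2, IEC4 and IEC12. Genes called higher in the first-named group made up 24.8%, 17.3% and 24.2% in the stage comparisons and 26.7%, 22.1% and 22.4% in the AOC comparisons, and genes called lower 12.5%, 26.9% and 19.3% and 37.1%, 47% and 36.2%. The median difference of all genes tested was 0.20, -0.15 and 0.032 in the stage comparisons and -0.20, -0.45 and -0.22 in the AOC comparisons. Of the calls, 66.5%, 39.2% and 55.7% were higher in the later stage and 41.9%, 32% and 38.2% were higher in AOC. Scaling by median of ratios brought every one of these medians to within 0.05 of 0, with 49.6%, 52.2% and 50.9%, 50.7% and 51.1% of calls higher in IEC4 against IEC2, IEC12 against IEC4 and the 3 AOC comparisons. Scaling to equal totals left 25.6% of calls higher in IEC12 against IEC4, 36.5% in IEC12 against IEC2, 31.1% in AOC against IEC2 and 24.1% in AOC against IEC4. By median of ratios 36.1%, 45.8% and 44% of genes were called in the stage comparisons and 64.7%, 65.5% and 58.2% in the AOC comparisons. At equal totals these shares were 34.1%, 43% and 40.7% and 65.9%, 71.1% and 55.6%.

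CMAH was expressed in AOC and listed at or near 0 in the 3 induced groups. The gene (ENSSSCG00000001099) lies on chromosome 7 from 19879367 to 19917761 of Sscrofa11.1. In AOC its FPKM was 11.4, 12.4 and 8.92 in replicates A, B and C. In IEC2 it was listed at 0, 0 and 0.0127, in IEC4 at 0.0773, 0 and 0, and in IEC12 at 0, 0.0353 and 0.0651. Thus 5 of the 9 induced libraries were listed at 0, the 3 stages overlapped with each other, and the lowest AOC library lay 115-fold above the highest induced library.

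The limma difference of CMAH was 3.56 (95% interval 3.26 to 3.85) in AOC against IEC2, 3.53 (3.23 to 3.82) against IEC4 and 3.52 (3.22 to 3.81) against IEC12, with adjusted p of 1.2e-09, 1.7e-09 and 1.6e-09. Of the 8 genes, only CMAH and CD47 passed the filter in the AOC comparisons, and CD47 was not called. CMAH was called in each of them, as were 63.8%, 69.1% and 58.5% of all genes tested. It passed the filter on low values only through AOC, so the call is given as a description, and the size of the difference depends on the pseudocount, with 6.71, 6.49 and 6.38 at a pseudocount of 0.1. CMAH also passed the stricter limits of the study's own gene selection (p and q under 0.001, a log2 change beyond 3) in the AOC comparisons, as did 5.47%, 5.17% and 4.41% of all genes, while 1.18%, 0.939% and 1.22% did in the stage comparisons. A larger absolute difference was measured for 3.28%, 3.10% and 2.78% of the genes tested. Between the stages CMAH was too low to be tested.

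Among 9158 other genes with a symbol, the 2 whose levels followed CMAH most closely over the 12 libraries were CDH13, a cadherin, at Pearson r = 0.9997 and CLEC14A, a lectin-like protein of endothelium, at 0.9996. Their AOC means were 48.1 and 127 FPKM, and CLEC14A was listed at 0 in every induced group. These correlations describe a single split, AOC against all induced libraries, and rest on the same 12 libraries.

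**Figure D1:**
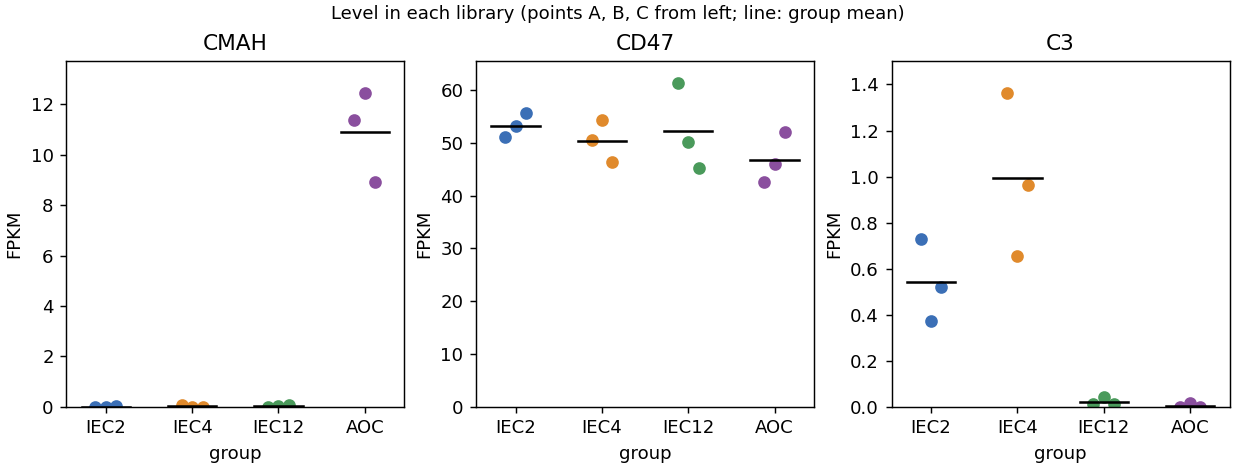
FPKM (y axis, a linear scale of its own for each gene) of CMAH, CD47 and C3 in each library, with groups on the x axis, replicates A, B and C from left to right and the group mean as a line. CMAH stands above 8.9 only in AOC, CD47 lies between 42.5 and 61.4 in all 12 libraries, and C3 lies above 0.37 only in IEC2 and IEC4.

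The genes around CMAH were followed through a list of 48 genes of glycan xenoantigens and sialic acid, of which 40 were found. In AOC, 31 of them were tested. Against IEC2, 13 were higher and 9 lower, against IEC4 10 and 10, and against IEC12 11 and 5. The share called, 71%, 64.5% and 51.6%, was near the 63.8%, 69.1% and 58.5% of all genes, and it includes CMAH and ST6GALNAC2, which passed the filter only through AOC. The list's median difference was 0.33, -0.18 and 0.19, beside the medians of all genes of -0.20, -0.45 and -0.22. The split of the first 2 comparisons turned with the scaling. By median of ratios it was 16 higher and 8 lower against IEC2 and 13 and 9 against IEC4. At equal totals it was 9 and 11 and 8 and 12. Against IEC12 it was 12 and 3 by median of ratios and 10 and 5 at equal totals. Of all genes, 64.7%, 65.5% and 58.2% were called by median of ratios and 65.9%, 71.1% and 55.6% at equal totals.

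The 5 genes of sialic acid supply lead up to and away from the substrate of CMAH. SLC35A1, the carrier that brings CMP-sialic acid into the Golgi, had 15.7, 18.8 and 20.5 FPKM in AOC. Its induced libraries lay between 1.98 and 5.53, below all AOC libraries. The difference was 1.99 (SE 0.24, adjusted p 1.7e-05) against IEC2, 2.54 (2.3e-06) against IEC4 and 2.00 (2.0e-05) against IEC12. SLC35A1 was not called between the stages.

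The enzymes before it differed less. NANS, the synthase of sialic acid, was high in every group, with means of 88.4 ± 13.4 (SD, n = 3) in IEC2, 109 ± 0.796 in IEC4, 143 ± 32.4 in IEC12 and 127 ± 20.2 in AOC. CMAS, which makes the CMP-sialic acid that CMAH acts on, had means of 13.0 ± 4.40, 7.60 ± 1.16, 13.1 ± 1.88 and 17.2 ± 4.30, and in AOC it exceeded IEC4 by 1.06 (adjusted p 0.0021). GNE, the enzyme of the first committed step, had means of 6.36 ± 1.14, 8.05 ± 0.756, 4.22 ± 0.610 and 3.67 ± 0.947. GNE fell by 0.80 from IEC4 to IEC12 (adjusted p 0.0062) and was lower in AOC than in IEC4 (-0.97, 6.8e-04). Thus CMAS transcripts were present in the induced groups in which CMAH was listed at or near 0. SIAE, which removes acetyl groups from sialic acids, fell by 1.09 from IEC4 to IEC12 (adjusted p 0.0022).

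Of the sialyltransferases, which place sialic acid on glycans, 11 were found and 6 tested in the AOC comparisons, with 3 higher and 1 lower against IEC2, 3 and 1 against IEC4 and 3 and 0 against IEC12. That is 66.7%, 66.7% and 50%, beside 63.8%, 69.1% and 58.5% of all genes. ST6GALNAC2, named after its values were seen, is one of the 3 higher in each comparison and passed the filter only through AOC, where it had 2.52, 3.63 and 2.89 FPKM. ST3GAL6 had 11.5, 13.6 and 12.5 FPKM in IEC2, 15.9, 19.3 and 16.1 in IEC4, 34.8, 30.8 and 30.3 in IEC12, and 32.0, 31.6 and 40.0 in AOC. IEC12 and AOC overlapped and both lay above the earlier stages. It rose by 0.87 from IEC4 to IEC12 (adjusted p 0.0011), while IEC12 and AOC differed by 0.10 (adjusted p 0.54). ST3GAL4 had a mean of 40.2 ± 1.86 in IEC2 and of 20.3 ± 6.02 in IEC12, and fell by 1.0 (adjusted p 0.0062). ST3GAL5, the synthase of the ganglioside GM3, had a mean of 8.32 ± 1.24 in AOC and exceeded IEC4 by 1.43 (2.6e-05).

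The supply of UDP-galactose and of galactosylated acceptors, on which alpha-Gal synthesis draws, held 12 tested genes. Against IEC2, IEC4 and IEC12, AOC had 3, 2 and 2 of them higher and 5, 4 and 4 lower, which is 66.7%, 50% and 50% called, beside 63.8%, 69.1% and 58.5% of all genes. UGP2, which makes UDP-glucose, had 33.0, 36.7 and 33.7 FPKM in AOC and at most 15.4 in the induced libraries. It exceeded IEC12 by 1.87 in AOC (adjusted p 3.8e-07). B4GALT6, a synthase of lactosylceramide, went the other way, at 18.8, 15.7 and 15.7 in IEC2, 7.13, 4.97 and 6.12 in IEC4, 2.60, 3.30 and 3.10 in IEC12 and 0, 0 and 0.0113 in AOC. No 2 of these groups overlapped. B4GALT6 fell by 1.33 to IEC4 (adjusted p 3.7e-04) and fell by 0.82 from IEC4 to IEC12 (0.0049), and was lower in AOC than in IEC2 (-4.14, 1.2e-09).

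B4GALT1, the main galactosyltransferase of the Golgi, peaked at IEC4. It had 9.37, 17.8 and 17.8 FPKM in IEC2, 48.1, 60.5 and 71.0 in IEC4, 24.1, 33.0 and 41.4 in IEC12 and 20.6, 18.6 and 16.1 in AOC. The rise to IEC4 was 1.96 (adjusted p 5.4e-04). GLA, the lysosomal alpha-galactosidase, and NEU1, a lysosomal sialidase, showed the same order of IEC2 and IEC4, with rises of 1.46 (adjusted p 2.5e-04) and 1.5 (0.010), and lower levels in IEC12 than in IEC4 (-0.98, 0.0021, and -1.80, 0.0038). FUT1, the transferase of the H antigen, which uses the same acceptor as GGTA1, had a mean of 7.51 ± 3.21 in IEC4 and of 1.66 ± 0.371 in AOC. It was lower in AOC (-1.61, adjusted p 0.018), a call lost at a pseudocount of 0.1 and without AOC replicate C, IEC4 replicate A or IEC4 replicate C.

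UGCG, which starts the glycolipids by making glucosylceramide, had 102, 97.6 and 121 FPKM in AOC against 8.64 to 26.2 in the 9 induced libraries. The differences were 2.31 (adjusted p 4.3e-06), 2.96 (6.3e-07) and 2.12 (1.1e-05) against IEC2, IEC4 and IEC12. B3GALNT1, which makes globoside, rose by 1.19 from IEC4 to IEC12 (adjusted p 0.0022), to a mean of 11.2 ± 2.87, and was lower in AOC, at 1.51 ± 0.285, than in each stage. Over the stages, 29 genes of the glycan list were tested. In IEC4 against IEC2, 7 were higher and 5 lower (median 0.31), in IEC12 against IEC4 4 and 12 (median -0.60), and in IEC12 against IEC2 5 and 8 (median -0.12). This is 41.4%, 55.2% and 44.8% against the background of 37.3%, 44.2% and 43.6%. Equal totals made these splits 6 and 6, 2 and 12 and 3 and 10, and median of ratios 5 and 7, 6 and 11 and 5 and 8.

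**Figure D2:**
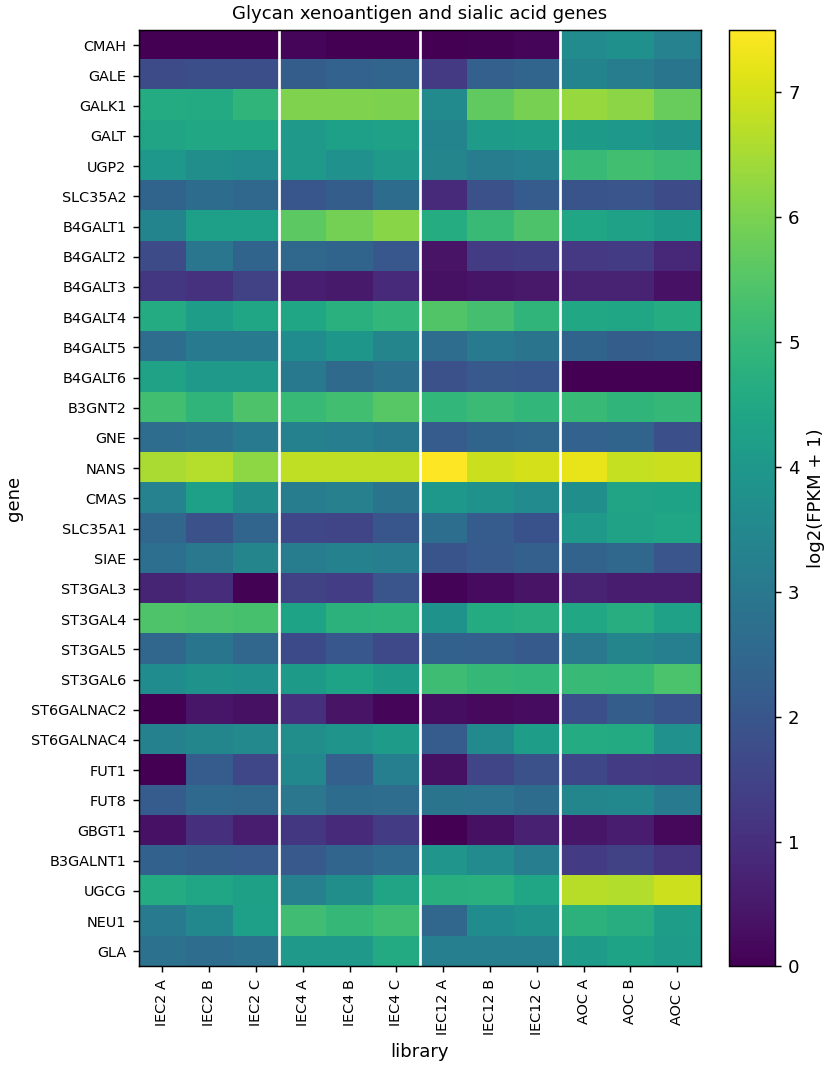
Levels of the 31 tested genes of the glycan list, as log2(FPKM + 1) in colour, with one row per gene and one column per library, and white lines between groups. CMAH is dark in the 9 induced libraries and bright in AOC, UGCG and SLC35A1 are brightest in AOC, and B4GALT6 darkens from IEC2 to AOC.

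CD47 was expressed in every library, with no call between groups. The gene (ENSSSCG00000011942) lies on chromosome 13 from 151427933 to 151488064. Its FPKM was 51.1, 53.1 and 55.6 in IEC2 (mean 53.2 ± 2.26), 50.5, 54.3 and 46.3 in IEC4 (50.4 ± 3.98), 61.4, 50.1 and 45.2 in IEC12 (52.2 ± 8.30) and 42.5, 46.0 and 52.0 in AOC (46.8 ± 4.79). Every pair of groups overlapped, and the highest library lay 1.45-fold above the lowest. Its mean over the 12 libraries, 50.7, exceeded that of 88.2% of the genes tested.

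The difference of CD47 was -0.081 (95% interval -0.39 to 0.23, adjusted p 0.67) in IEC4 against IEC2, 0.044 (-0.27 to 0.35, 0.82) in IEC12 against IEC4 and -0.037 (-0.35 to 0.27, 0.85) in IEC12 against IEC2. AOC differed by -0.19 (-0.47 to 0.098, 0.23), -0.11 (-0.39 to 0.18, 0.48) and -0.15 (-0.43 to 0.14, 0.35) from IEC2, IEC4 and IEC12. The intervals leave room for differences of up to 0.47 on the log2 scale. The order of the 4 means, IEC2, IEC12, IEC4 and AOC, is therefore not settled by these tests.

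The widest difference between any 2 group means was 0.19 for CD47, beside a median of 1.28 for all genes, and 42 of 11053 genes (0.38%) had a narrower one. This rank depends on the scaling of the libraries. With median of ratios the widest difference was 0.41 and 4.61% of genes were narrower, and with equal totals it was 0.51 and 6.65%. With equal totals CD47 was called lower in AOC than in IEC2 (-0.51, adjusted p 0.0032) and than in IEC4 (-0.36, 0.021), while by median of ratios all 3 AOC differences were positive and not called, at 0.065, 0.41 and 0.13. The 2 genes closest to CD47 over the libraries were NEMF (r = 0.82) and MPDZ (r = 0.81), over libraries between which CD47 itself varied 1.45-fold.

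**Figure D3:**
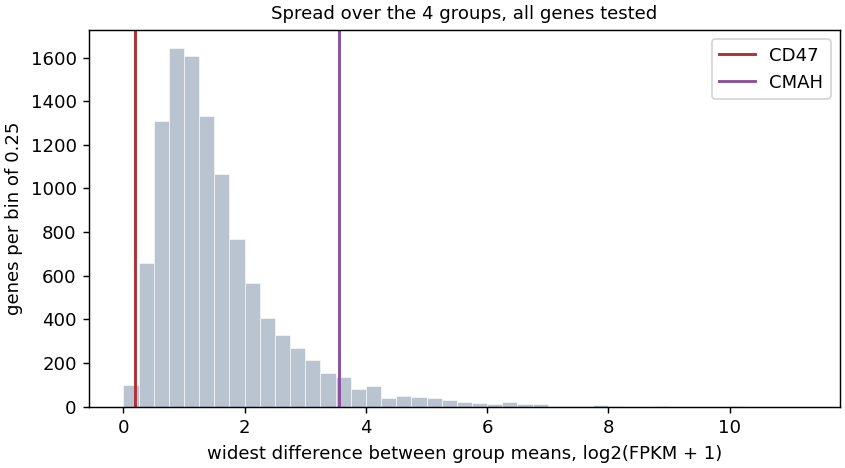
Histogram of the widest difference between group means, in log2(FPKM + 1) on the x axis, for the 11053 genes tested over all 12 libraries, with the number of genes per bin of 0.25 on the y axis. The line for CD47 lies at 0.19, in the lowest bin, and the line for CMAH at 3.56, in the upper tail.

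Of 16 genes listed around CD47, 10 were found and 7 tested, and neither SIRPA nor its relatives SIRPB1 and SIRPG had a symbol match. In IEC4 against IEC2, 4 were higher and 0 lower (median 0.92), in IEC12 against IEC4 0 and 2 (-0.27), and in IEC12 against IEC2 2 and 0 (-0.037). That is 57.1%, 28.6% and 28.6% called, beside 37.3%, 44.2% and 43.6% of all genes, whose medians were 0.20, -0.15 and 0.032. In AOC against IEC2, IEC4 and IEC12, 3, 5 and 4 were higher (medians 0.76, 0.83 and 0.65) and 1 was lower in each. That is 57.1%, 85.7% and 71.4% called, beside 63.8%, 69.1% and 58.5% of all genes, whose medians were -0.20, -0.45 and -0.22. The equal-totals scaling made the splits of the first 2 AOC comparisons 3 and 2 and 3 and 2.

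THBS1, the secreted ligand thrombospondin that binds CD47, had the widest range of the 7 tested genes. It had 229, 268 and 320 FPKM in AOC, 1.31, 0.505 and 0.745 in IEC2, 7.45, 6.67 and 70.2 in IEC4, and 0.127, 0.118 and 0.194 in IEC12. AOC did not overlap with any stage, its lowest library lying 3.26-fold above the highest induced library, IEC4 replicate C, which stood far from the other IEC4 libraries. THBS1 exceeded IEC12 by 7.88 in AOC (adjusted p 8.1e-07). It rose by 3.19 to IEC4 (adjusted p 0.0062) and fell by 3.86 to IEC12 (0.0021), and without IEC4 replicate C these changes were 2.14 (2.5e-04) and -2.81 (1.2e-04). Thus CD47 transcripts varied 1.45-fold in the same libraries in which those of its ligand ranged from 0.118 to 320 FPKM.

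QPCT and QPCTL are glutaminyl cyclases, and QPCTL modifies the SIRPA binding site of CD47. QPCTL had means of 5.55 ± 1.82 in IEC2, 11.1 ± 1.44 in IEC4, 14.2 ± 4.91 in IEC12 and 21.9 ± 1.86 in AOC. It was higher in IEC12 than in IEC2 by 1.20 (adjusted p 0.0091) and in AOC than in IEC2 by 1.85 (7.5e-05). QPCT had 3.17, 2.61 and 2.34 FPKM in IEC2, 16.0, 16.9 and 19.5 in IEC4, 18.0, 14.0 and 11.6 in IEC12, and 29.6, 40.0 and 33.0 in AOC. It rose by 2.32 to IEC4 (adjusted p 2.5e-05) and exceeded IEC12 in AOC by 1.19 (1.1e-04). PTPN6, a phosphatase that acts behind SIRPA in phagocytes, was at most 0.0608 in AOC and had means of 1.37 ± 0.396, 3.47 ± 0.529 and 1.02 ± 0.720 in IEC2, IEC4 and IEC12. It was lower in AOC than in IEC4 (-2.09, adjusted p 1.3e-05).

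C3 was low everywhere, and its level split the 4 groups in pairs. The gene (ENSSSCG00000013551) lies on chromosome 2 from 72431470 to 72471622. Its FPKM was 0.729, 0.371 and 0.521 in IEC2, 1.36, 0.656 and 0.964 in IEC4, 0.0105, 0.0427 and 0.0135 in IEC12, and 0, 0.0154 and 0 in AOC. IEC2 and IEC4 overlapped, IEC12 and AOC overlapped, and the lowest library of the first pair lay 8.68-fold above the highest of the second. Only 1 library, IEC4 replicate A, reached an FPKM of 1, so C3 failed the filter in both fits.

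In a fit without the filter, added after the levels were seen, C3 fell by 0.95 from IEC4 to IEC12 (95% interval of the difference -1.27 to -0.63, adjusted p 0.0028) and was lower in AOC than in IEC4, with a difference of -0.97 (-1.24 to -0.71, 8.7e-05). It was lower than in IEC2 both in AOC, with a difference of -0.61 (-0.88 to -0.34, 0.0020), and in IEC12, with a difference of -0.59 (-0.91 to -0.26, 0.019). The difference was 0.36 (0.04 to 0.69, adjusted p 0.11) in IEC4 against IEC2 and -0.024 (adjusted p 0.96) in AOC against IEC12. In these fits 26.1%, 47.8%, 41.1% and 24.3% of all genes were called in the 4 comparisons in which C3 was, and 22.3% and 38.2% in the other 2. The log2(FPKM + 1) scale understates changes this low. The call in IEC12 against IEC2 was lost in 5 of 11 alternatives, those without IEC2 replicate A (-0.498, adjusted p 0.053), IEC2 replicate C (-0.591, 0.053) or IEC12 replicate A, B or C (-0.577, -0.599 and -0.579, with 0.052, 0.058 and 0.054). Over all 11 the adjusted p was 0.0030 to 0.058. Without IEC4 replicate B, IEC4 was called above IEC2 (0.49, adjusted p 0.040). Marker sums of other cells are given beside C3. The 4 mesoderm markers found (of 5) summed to 3.64 to 5.17 FPKM in IEC2 and 7.35 to 10.6 in IEC4. In IEC12 they summed to 1.94 to 2.88 and in AOC to 0.419 to 0.498. PDGFRA led in IEC2, at a mean of 4.24, and HAND1 in IEC4, at 7.65. The 6 fibroblast and mural markers summed to 2.96 to 14.1 in IEC2 and 4.28 to 19.7 in IEC4. Their sums were 1.97 to 3.465 in IEC12 and 18.3 to 29.75 in AOC. COL1A2 and ACTA2 led in AOC, at means of 13.95 and 7.49, with COL1A1, PDGFRB, TAGLN and DCN at 0.812 or less. DCN led in IEC2, at a mean of 6.22 and at 13.5 in replicate A. The 6 leukocyte markers summed to 7.32 to 12.1 FPKM in IEC4, 1.71 to 1.81 in IEC2, 1.96 to 3.02 in IEC12 and 3.05 to 3.99 in AOC. Among them CSF1R reached at most 0.0147 in any library, and PTPRC was listed at 0 in AOC. The 4 epithelial markers found (of 5) summed to 317 to 822 in IEC4 and at most 21.2 elsewhere, with KRT8 at a mean of 494. The 4 hepatic markers found (of 5) summed to 24.8 to 38.9 in AOC, nearly all of it APOA1, and to at most 2.75 elsewhere, with ALB at 0.0624 or less in every group mean. The part of these cells in the levels of C3 was not tested.

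**Figure D4:**
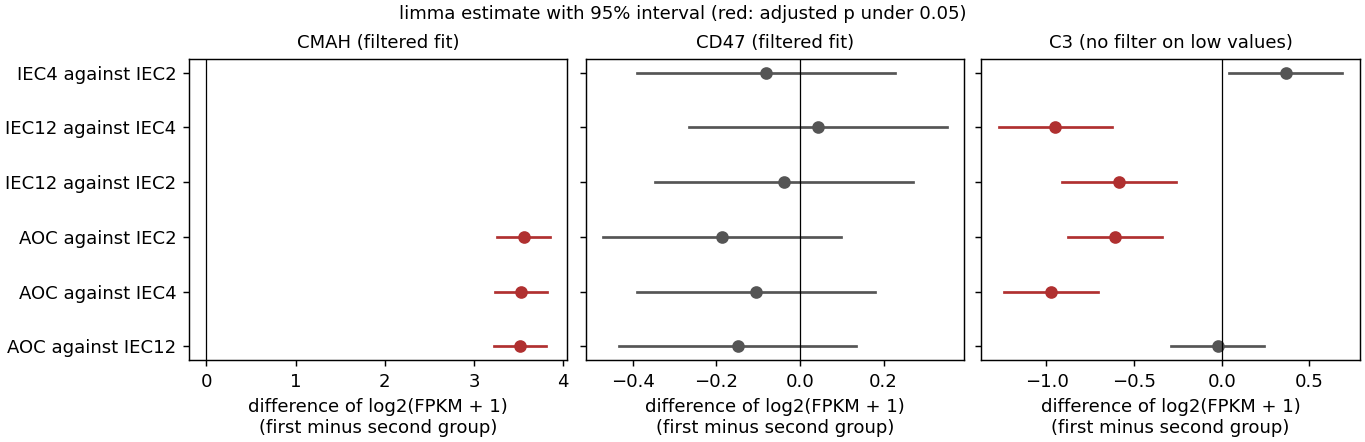
limma difference of log2(FPKM + 1) (x axis, first minus second group) with its 95% interval for each of the 6 comparisons (y axis), red where the adjusted p is under 0.05. CMAH is near 3.5 in the 3 AOC comparisons, every CD47 interval spans 0, and C3, from the fit without a filter, is below 0 in 4 comparisons.

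Complement as a whole was followed through 51 genes, of which 34 were found. Most of the found genes were too low to be tested, and 9 were tested over the stages and 15 in the AOC comparisons, 6 of them only there. In IEC4 against IEC2, 3 were higher and 3 lower, in IEC12 against IEC4 3 and 3, and in IEC12 against IEC2 2 and 3, with medians of 0.36, -0.66 and -0.072. That is 66.7%, 66.7% and 55.6% called, beside 37.3%, 44.2% and 43.6% of all genes, with VTN in the list through IEC12 alone. In AOC, 7 were higher and 5 lower than in IEC2, 6 and 7 than in IEC4, and 6 and 6 than in IEC12, with medians of -0.024, 0.14 and -0.41. That is 80%, 86.7% and 80% called, beside 63.8%, 69.1% and 58.5% of all genes. The 6 genes tested only beside AOC passed the filter through it, so these counts are a description. Median of ratios made the IEC4 and IEC12 splits in AOC 8 and 5 and 7 and 5, and equal totals made the stage splits 3 and 3, 2 and 4 and 1 and 4.

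The alternative pathway, which amplifies C3 cleavage, had 4 genes found, C3 included, and 2 tested. CFB, the factor that joins C3b to form the convertase, had 128, 116 and 168 FPKM in IEC2, 58.8, 60.0 and 46.4 in IEC4, 12.5, 18.8 and 17.2 in IEC12, and 0.0528, 0.0861 and 0.0683 in AOC. No 2 groups overlapped. CFB fell by 1.30 to IEC4 (adjusted p 8.4e-04) and fell by 1.72 from there to IEC12 (1.9e-04), and was lower in AOC than in IEC2 (-6.998, 5.1e-11). The level of CFB was 176, 312 and 323 times that of C3 in the IEC2 libraries and 43.1, 91.4 and 48.2 times in IEC4. It was 1180, 441 and 1270 times in IEC12, where C3 was listed below 0.05 FPKM, so these ratios rest on values near 0. In AOC, C3 was listed at 0 in replicates A and C, and the ratio in replicate B was 5.6. C3 and CFB were thus both low in AOC. CFB was highest in IEC2, while C3 overlapped between IEC2 and IEC4. The C3 difference between these 2 stages, 0.36, was not called (limma without the filter, adjusted p 0.11).

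CFD, the protease that activates factor B, had 15.4, 33.3 and 20.9 FPKM in AOC and at most 4.74 in the induced libraries. The differences were 4.42 (adjusted p 1.3e-06), 2.95 (3.9e-05) and 3.86 (5.2e-06) against IEC2, IEC4 and IEC12. C2, the counterpart of factor B in the classical pathway, was listed at 0 in the 3 AOC libraries and had means of 2.68 ± 1.24, 1.91 ± 0.507 and 0.493 ± 0.308 in IEC2, IEC4 and IEC12. It fell by 1.26 from IEC2 to IEC12 (adjusted p 0.0065). MASP1, a protease of the lectin pathway, had 12.3, 11 and 10.1 FPKM in AOC and at most 0.985 in the induced libraries. It passed the filter only through AOC, so these levels are a description.

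Of the membrane regulators only CSMD1 had a symbol match, beside the missing CD46, CD55 and CD59, and it was at most 0.0622 FPKM in any library. The soluble regulators, which restrain complement in fluid, had 9 genes found and 4 tested. In AOC, 0 of them were higher and 3, 3 and 4 lower than in IEC2, IEC4 and IEC12, with medians of -1.71, -1.68 and -1.67. Of all genes 37.1%, 47% and 36.2% were called lower, with medians of -0.20, -0.45 and -0.22, and 1 of the 4 regulators, VTN, passed the filter only through IEC12. The members lower in all 3 comparisons were CFI and SERPING1. CFI, the protease that cuts C3b with the help of CD46, had 19.0, 18.0 and 18.5 FPKM in IEC2, 9.39, 10.3 and 7.66 in IEC4, 17.6, 13.1 and 10.7 in IEC12, and 0.219, 0.183 and 0.439 in AOC. AOC lay below every induced library, with a difference of -3.51 from IEC12 (adjusted p 1.7e-08). CFI fell by 0.95 to IEC4 (adjusted p 0.0037).

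SERPING1, the inhibitor of C1 and the lectin proteases, had means of 16.9 ± 2.75, 30.8 ± 5.38, 16.2 ± 4.03 and 2.91 ± 0.803 in IEC2, IEC4, IEC12 and AOC. It was lower in AOC than in IEC4 (-3.03, adjusted p 2.9e-07) and in IEC12 (-2.13, 6.0e-06). CLU, clusterin, which binds the terminal complex, was the most abundant of the soluble regulators, at 390 ± 42.6, 142 ± 6.26, 239 ± 9.89 and 169 ± 28.5. It fell by 1.45 to IEC4 (adjusted p 2.3e-05) and rose by 0.75 to IEC12 (8.7e-04). VTN, vitronectin, which also binds the terminal complex, reached 1.24, 1.26 and 1.4 FPKM in IEC12, at most 0.498 in IEC4 and 0.0516 in IEC2, and was listed at 0 in AOC. It passed the filter only through IEC12, so these levels are a description.

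Of the receptors of complement fragments and of C1q, 7 were found, 1 was tested over the stages and 5 in the AOC comparisons. The 4 that entered only with AOC (C3AR1, C5AR2, CD93 and C1QBP) passed the filter through the group in which they were high, so their calls are a description. ITGAM and ITGB2, the chains of a C3 fragment receptor, were not tested and reached at most 0.178 and 0.708 FPKM, both in IEC4. C3AR1, ITGAM and ITGB2 are named after their values were seen. C5AR2, a receptor of the C5a fragment, had 6.05, 8.40 and 6.63 FPKM in AOC, at most 0.368 in IEC4 and 0 in IEC2 and IEC12. CD93, an endothelial and myeloid surface protein, had 18.0, 19.4 and 8.34 in AOC and at most 0.00949 elsewhere. C1QBP, a mainly mitochondrial protein that binds C1q, was listed at 40.6, 15.9 and 15.7 in AOC and at 0.109 or less in the induced libraries. CALR, the endoplasmic reticulum chaperone that also binds C1q and marks cells for uptake against the CD47 signal, was high in every group, with means of 187 ± 36.9, 374 ± 108, 233 ± 52.9 and 173 ± 9.21 in IEC2, IEC4, IEC12 and AOC. It rose by 0.98 to IEC4 (adjusted p 0.012), a call lost under median of ratios. The 5 terminal components found (C5, C6, C7, C8B and C9, named after their values were seen) reached at most 0.346 FPKM, and none could be tested.

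**Figure D5:**
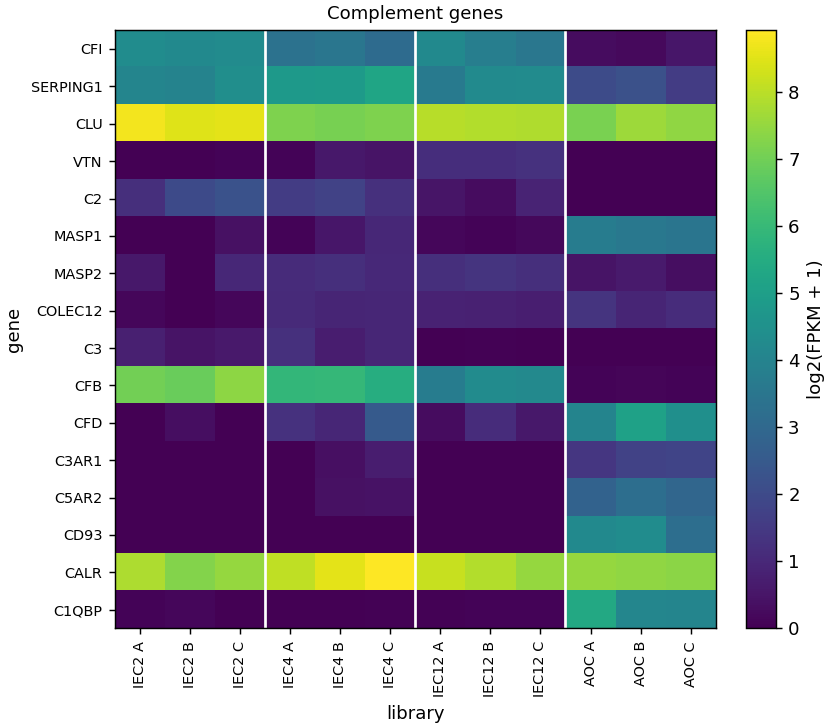
Levels of C3 and of the 15 tested genes of the complement list, as log2(FPKM + 1) in colour, with one row per gene and one column per library, and white lines between groups. CFB darkens from IEC2 to AOC, CFI and SERPING1 are darkest in AOC, and CFD, MASP1, C5AR2, CD93 and C1QBP are bright in AOC only.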

How the data were processed

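The authors sequenced RNA amplified by Smart-Seq2 on an Illumina HiSeq 2500 and deposited the FPKM of each gene in each library. The submitters' processing notes name Bowtie2 2.2.3, TopHat2 2.0.12, Cufflinks 2.2.1 and the build susScr11 (Sscrofa11.1). A value of 0 can be a failed estimate, so such genes are said to be listed at 0. FPKM steps of low genes gave relative depths of 0.668 to 1.23, known only up to a factor of 2, so no counting interval is given. Tests used limma 3.58.1 in R 4.3.3 (lmFit, contrasts.fit, eBayes with trend) on log2(FPKM + 1), with the 9 IEC libraries for stages and all 12 for AOC. The limma fit was tried on simulated data with known changes in genes of higher level. That trial does not bear on genes near 0, such as C3. Figures and depths used Python 3.11.15, NumPy 2.4.6, pandas 2.3.3 and matplotlib 3.10.9. The genes and lists were chosen with earlier results of these data known. List genes named had a group mean of at least 5 FPKM or were among the 3 largest called changes of a list and comparison. The closest genes are the 2 highest Pearson r on log2(FPKM + 1). Alternatives were another pseudocount, no filter, other libraries in the fit, a replicate block, 2 scalings, another variance model, stricter limits and each replicate left out.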

Additional observations from a re-analysis of the deposited data

How the results depend on the processing

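Same-letter libraries deviated together at r = -0.514 to 0.246 over 18 pairs, with 2 above 0.1. These values gave no clear sign of pairing by letter, but with 3 libraries per group they cannot exclude it. The replicate block made 21, 20 and 15 glycan genes past the test in the AOC comparisons, in place of 22, 20 and 16, and moved no count by over 1.5 times. CD47 changed sign in IEC12 against IEC4 at equal totals (-0.165), without IEC4 replicate C (-0.014) and without IEC12 replicate A (-0.077), with -0.077 to 0.14 over all libraries left out, and in IEC12 against IEC2 without IEC12 replicate C (0.059), with -0.157 to 0.059. By median of ratios it changed sign in AOC against IEC2 (0.065), IEC4 (0.411) and IEC12 (0.126). At the stricter limits (p and q under 0.001, a log2 change beyond 3), 0, 0, 0, 2, 1 and 1 genes of the glycan list passed. The order is IEC4 against IEC2, IEC12 against IEC4, IEC12 against IEC2 and AOC against IEC2, IEC4 and IEC12. The counts were 0, 0, 1, 6, 5 and 6 for the complement list and 0, 0, 0, 2, 1 and 1 for the CD47 list. Of all genes, 1.18%, 0.939%, 1.22%, 5.47%, 5.17% and 4.41% passed. The glycan, complement and CD47 lists had 29, 9 and 7 genes tested over the stages and 31, 15 and 7 in the AOC comparisons. MASP1, CD93 and C1QBP, counted in each AOC comparison, passed the filter only through AOC. CMAH is among the glycan genes counted in each AOC comparison, and it passed the filter only through AOC, so this is a description. Without the filter, 2 genes of the CD47 list were called in IEC4 against IEC2, 8 complement genes in IEC12 against IEC2, and among the 8 genes 1, 1, 2 and 2 in IEC12 against IEC4, IEC12 against IEC2, AOC against IEC2 and AOC against IEC4. Equal totals made the last 2 counts 2 and 2.

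Leaving out 1 library at a time gave 0 to 1 of the 8 genes in each AOC comparison, since without an AOC library CMAH no longer reached 3 libraries at an FPKM of 1. In the order above it gave 6 to 14, 10 to 20, 9 to 13, 17 to 24, 17 to 20 and 12 to 15 glycan genes. Complement genes numbered 5 to 7, 3 to 5, 3 to 5, 6 to 12, 6 to 13 and 7 to 13. Genes of the CD47 list numbered 2 to 4, 2 to 2, 2 to 3, 4 to 6, 5 to 6 and 4 to 6. The share of all genes called moved too in the same fits. In the same order it was 26.4% to 43.9%, 31.8% to 45.6%, 31.7% to 45.7%, 57% to 67.6%, 61.6% to 72.8% and 50.2% to 60.3%. The low counts came without IEC2 A, IEC2 C, IEC4 A or IEC4 B (glycan, IEC4 against IEC2), IEC4 A (glycan, IEC12 against IEC4), IEC12 B (complement, IEC12 against IEC4), IEC12 B or C (complement, IEC12 against IEC2), any AOC library (complement, AOC) and IEC2 A, IEC4 A or IEC4 C (CD47 list, IEC4 against IEC2). Of 173 calls of other list genes, 126 held under every alternative in which the gene was tested and 0 changed sign.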
